A study of Mus musculus with 32 samples.

Results

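A set of 41 mouse genes of mitosis and the spindle was followed through the developing cerebral cortex of embryos with and without the histone acetyltransferase KAT6B. The genes were chosen by symbol: cyclins and kinases that drive mitosis, the chromosomal passenger complex, checkpoint and anaphase genes, kinetochore proteins, spindle motors, cytokinesis genes, and the chromosome proteins Top2a and Mki67. All 41 were found among the 26331 named genes of the count tables. RNA was sequenced from dissected dorsal telencephalon of E12.5 embryos (age in embryonic days) and from cortex of E15.5 embryos, so age and dissected tissue change together. Wild-type (WT) and Kat6b-/- (KO) embryos were on the C57BL/6 background, with 3 libraries of each genotype at E12.5 and 5 of each at E15.5. WT embryos and embryos carrying the transgene Tg(Kat6b) (Tg) were on a mixed FVBxBALB/c background, with 4 libraries of each genotype at each age. The submitters used the mixed background because Tg mice did not survive on an inbred one. The promoter of the transgene and the extent of the Kat6b deletion were not given in the sources used here. The C57BL/6 labels name a litter and an embryo for each library. The FVBxBALB/c labels name neither, so p-values there may measure a spread that is partly technical. C57BL/6 and FVBxBALB/c libraries were also sequenced in separate batches, so background and batch cannot be told apart.

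In a dividing cell, cyclin-dependent kinase 1 bound to a B-type cyclin starts mitosis, Polo and Aurora kinases build the spindle, and kinetochores tie each chromosome to its microtubules. The spindle checkpoint holds the anaphase-promoting complex in check until every kinetochore is attached; securin and cyclin B are then destroyed, separase cuts the cohesin that joins sister chromatids, and the central spindle guides cytokinesis. In the embryonic cortex most of these genes are expressed mainly by radial glia dividing at the ventricle and by intermediate progenitors. Most are little expressed in the neurons that these cells produce. Transcription of many of them peaks in G2 and M phase through the cell cycle genes homology region (CHR), bound by the MuvB complex with B-MYB and FOXM1, and through CCAAT boxes bound by NF-Y.

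Promoter windows from RefSeq (GRCm38.p6, the C57BL/6J reference, 250 bases before to 50 bases after each annotated start) were present for 33 of the 41 genes. Aurkb, Ccna2, Cdc25c, Foxm1, Incenp, Kif20a, Spc24 and Tpx2 had no window. They are shown for 7 genes over the 120 bases before the start, 5′ to 3′ on the gene's strand: 5 that carry the elements in the arrangement described for G2 and M phase genes, Ccnb1 as a well known target with only the variant element, and Pttg1, whose window carries none of them and which differed most between the backgrounds. The RefSeq start used for Pttg1 is also a start in GENCODE vM21, but lies 1482 bases inside the RefSeq gene and 270 bases inside the most upstream GENCODE start, so other starts of the gene were not searched. For 2 of the 33 genes the start lay over 500 bases inside the most upstream GENCODE start: Kif2c (3867, and 3852 inside the RefSeq gene) and Cdca8 (2394). The start used for Aspm lay 585 bases inside the RefSeq gene but only 1 base inside the most upstream GENCODE start. Kif2c, Cdca8 and Aspm are counted below among the genes with TTTGAA. Capitals mark TTTGAA (the CHR), its variant TTTAAA and CCAAT, read on either strand (TTCAAA and ATTGG are the reverse complements).
Cdk1, chr10:69352913-69353032, minus strand: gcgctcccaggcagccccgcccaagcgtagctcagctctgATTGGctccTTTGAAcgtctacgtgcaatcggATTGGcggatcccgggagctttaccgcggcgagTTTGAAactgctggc
Ccnb1, chr13:100786487-100786606, minus strand: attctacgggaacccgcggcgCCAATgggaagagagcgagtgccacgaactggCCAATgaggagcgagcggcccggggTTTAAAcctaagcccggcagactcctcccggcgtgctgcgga
Cdc20, chr4:118437344-118437463, minus strand: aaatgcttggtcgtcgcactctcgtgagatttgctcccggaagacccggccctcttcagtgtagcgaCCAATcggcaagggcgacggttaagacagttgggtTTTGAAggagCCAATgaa
Espl1, chr15:102296173-102296292, plus strand: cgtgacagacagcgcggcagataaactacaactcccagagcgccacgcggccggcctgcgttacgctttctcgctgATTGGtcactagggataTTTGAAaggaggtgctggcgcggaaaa
Kif11, chr19:37376262-37376381, plus strand: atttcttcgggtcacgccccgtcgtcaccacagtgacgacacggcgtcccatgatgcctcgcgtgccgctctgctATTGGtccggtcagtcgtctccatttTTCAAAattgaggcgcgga
Top2a, chr11:99024190-99024309, minus strand: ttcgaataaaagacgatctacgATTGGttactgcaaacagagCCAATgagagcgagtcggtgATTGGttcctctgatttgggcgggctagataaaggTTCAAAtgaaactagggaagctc
Pttg1, chr11:43425982-43426101, minus strand: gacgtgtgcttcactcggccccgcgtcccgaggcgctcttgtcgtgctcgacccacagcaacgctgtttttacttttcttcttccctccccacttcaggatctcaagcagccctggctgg

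The CHR hexamer TTTGAA, searched on both strands of the 300-base windows, was present in 25 of the 33 genes (75.8%), against 20.2% of all 27025 genes in the table. Starting at or after base -60 it was present in 23 of the 33 (69.7%), against 6.36% of all genes. In Cdk1 it began at bases -71 and -15, in Cdc20 at -18, in Espl1 at -27, in Kif11 at -19 and in Top2a at -23, each time downstream of at least 1 CCAAT box. CCAAT was found in 25 of the 33 genes (75.8%, against 41.1%), and the SP1-type box GGGCGG in 27 (81.8%, against 38.2%), while the TATA hexamer TATAAA was found in 1 (3.03%, against 15.7%). The variant TTTAAA was found in 10 (30.3%, against 14.9%). Among 63 other mitotic genes with a window, 33 (52.4%) carried TTTGAA. Among 32 DNA replication genes 4 did, while 20 carried CCAAT (62.5%). CCAAT was also in 61.9% of the other mitotic genes, 80% of 10 radial glia markers, 85.7% of 7 neuron markers and 35.7% of 14 anaphase-promoting complex genes. GGGCGG was in 71.9% of DNA replication genes, 65.1% of other mitotic genes and 64.3% of anaphase-promoting complex genes. It was in 50% of radial glia and 57.1% of neuron markers. High shares of these boxes were thus not particular to the set. Birc5, Bub1, Ccnb1, Cenpe, Mad2l1, Nuf2, Nusap1 and Pttg1 had no TTTGAA in the window; of these, Mad2l1, Nuf2, Nusap1 and Pttg1 had neither TTTAAA nor CCAAT. A match is a description of letters, not a binding site or a cause, no match says only that the letters are not in this window, and the shares were not tested.

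**Figure D1:**
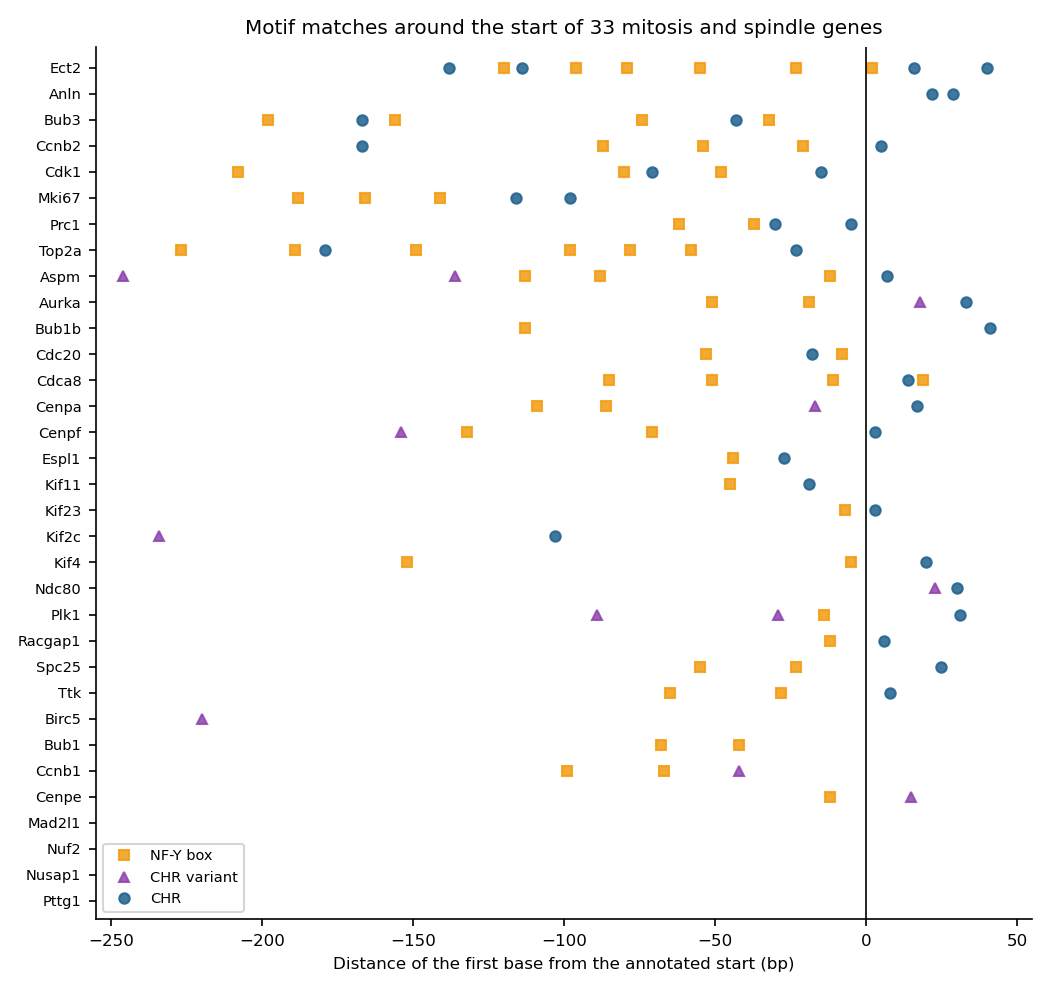
Matches to TTTGAA (CHR, circles), TTTAAA (CHR variant, triangles) and CCAAT (NF-Y box, squares) by distance in base pairs of the first base from the annotated start, for 33 genes in rows; where a gene has several starts, the matches of all its windows are drawn. In 23 of the 33 genes a CHR match begins at or after base -60, and the 4 lowest rows carry no match.

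Library totals ran from 10424813 to 49699656 counts. All 41 genes passed the filter on low counts in every fit, and the lowest count of any of them in any library was 55 (Pttg1). The transgene was visible in its own gene: Kat6b stood at 541 ± 53.9 CPM (counts scaled to a common library size; SD, n = 4) in Tg and 175 ± 20.2 in WT (n = 4) at E12.5, and at 654 ± 81.9 and 181 ± 32.4 (n = 4 each) at E15.5. In KO tissue Kat6b counts were 153 ± 34.9 (n = 3) against 171 ± 20.8 in WT (n = 3) at E12.5 and 178 ± 14.6 against 173 ± 17.9 (n = 5 each) at E15.5; the count covers the whole gene, so it does not check the KO label. At E15.5 the C57BL/6 replicates numbered 5 carry a column name of another age, and KO replicate 5 a tissue label of the younger stage; both were analysed at the age their titles give, and results without them are in the closing section. In KO replicate 3 at E15.5 the ribosomal entries Rn45s and Rn18s took 19.5% of counts, against 0.043 to 0.729% in the other libraries. Since RNA came from whole tissue, fewer dividing cells and less RNA of these genes per dividing cell cannot be told apart.

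The 41 genes together took 0.792 ± 0.143% of all counts in C57BL/6 WT at E12.5 (n = 3) and 0.338 ± 0.00901% at E15.5 (n = 5). In FVBxBALB/c WT they took 0.821 ± 0.0759% (n = 4) and 0.405 ± 0.021% (n = 4). Per kilobase of counted transcript, Top2a, the topoisomerase that untangles sister chromatids, was the most abundant in both backgrounds, at 171 CPM per kb in C57BL/6 and 200 in FVBxBALB/c WT at E12.5. Cyclin A2 (Ccna2) followed at 126 and 119 CPM per kb, and Racgap1 of the central spindle stood at 105 and 98.0. At the low end were separase (Espl1) at 13.7 and 12.9, the cytokinesis scaffold Anln at 14.9 and 15.4, and the spindle pole protein Aspm at 16.8 and 19.0 CPM per kb. Securin (Pttg1) was last in C57BL/6 at 5.11 CPM per kb but stood at 32.8 in FVBxBALB/c. At E15.5 Top2a was again first (74.0 and 92.3 CPM per kb), and the checkpoint protein Bub3 was second (65.1 and 66.9).

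**Figure D2:**
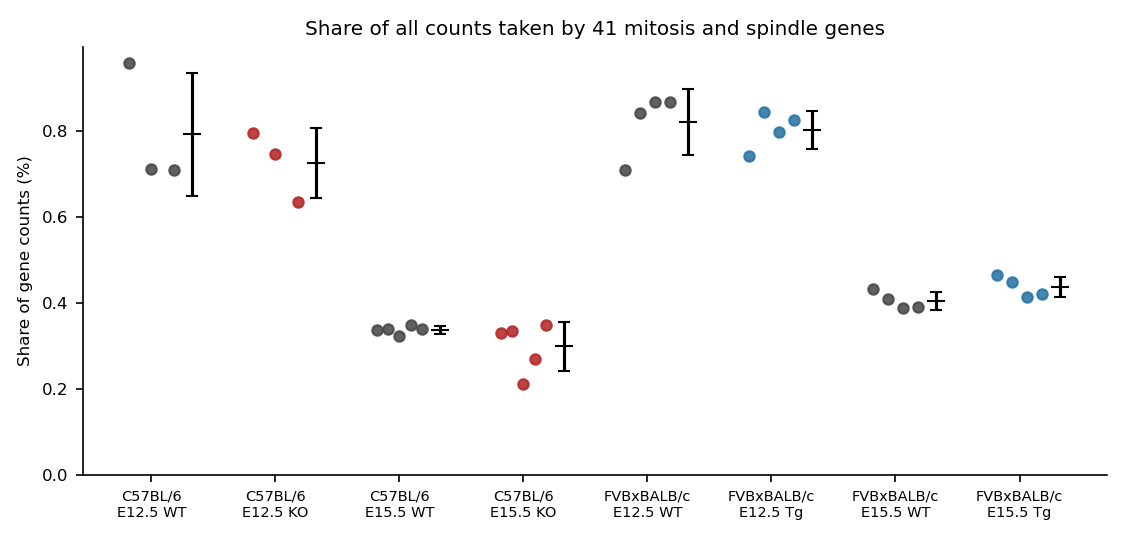
Share of all gene counts (%, vertical axis from 0) taken by the 41 genes in each library (points), by background, age and genotype, with the group mean and SD at the right of each group. The E15.5 libraries lie between 0.211 and 0.465%, below all E12.5 libraries (0.635 to 0.958%). The lowest point is KO replicate 3 at E15.5, where Rn45s and Rn18s took 19.5% of counts. In CPM the 41 genes summed to 2697 there and to 2698 in KO replicate 4.

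From E12.5 to E15.5 every gene of the set fell in WT tissue of both backgrounds. In C57BL/6 WT 41 of 41 passed an adjusted p of 0.05 as lower (edgeR quasi-likelihood test with Benjamini-Hochberg adjustment over 16118 genes), where 28.2% of all genes tested did and 28.6% were higher. No gene of the set had an estimate above 0 (48.7% of all genes did). The median log2 fold change was -1.22, or 2.33 times lower, and the SD among the 41 was 0.194. In FVBxBALB/c WT 41 of 41 were lower, against 25.1% of all genes, with a median of -0.96, or 1.95 times lower. All WT libraries at E15.5 lay below all WT libraries at E12.5 for 40 of 41 genes in C57BL/6 (24.9% of all genes; Pttg1 was the exception) and for 40 of 41 in FVBxBALB/c (21% of all genes; Bub3 was the exception). The medians of the 8 role groups lay between -1.12 and -1.31 in C57BL/6 and between -0.88 and -1.07 in FVBxBALB/c.

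**Figure D3:**
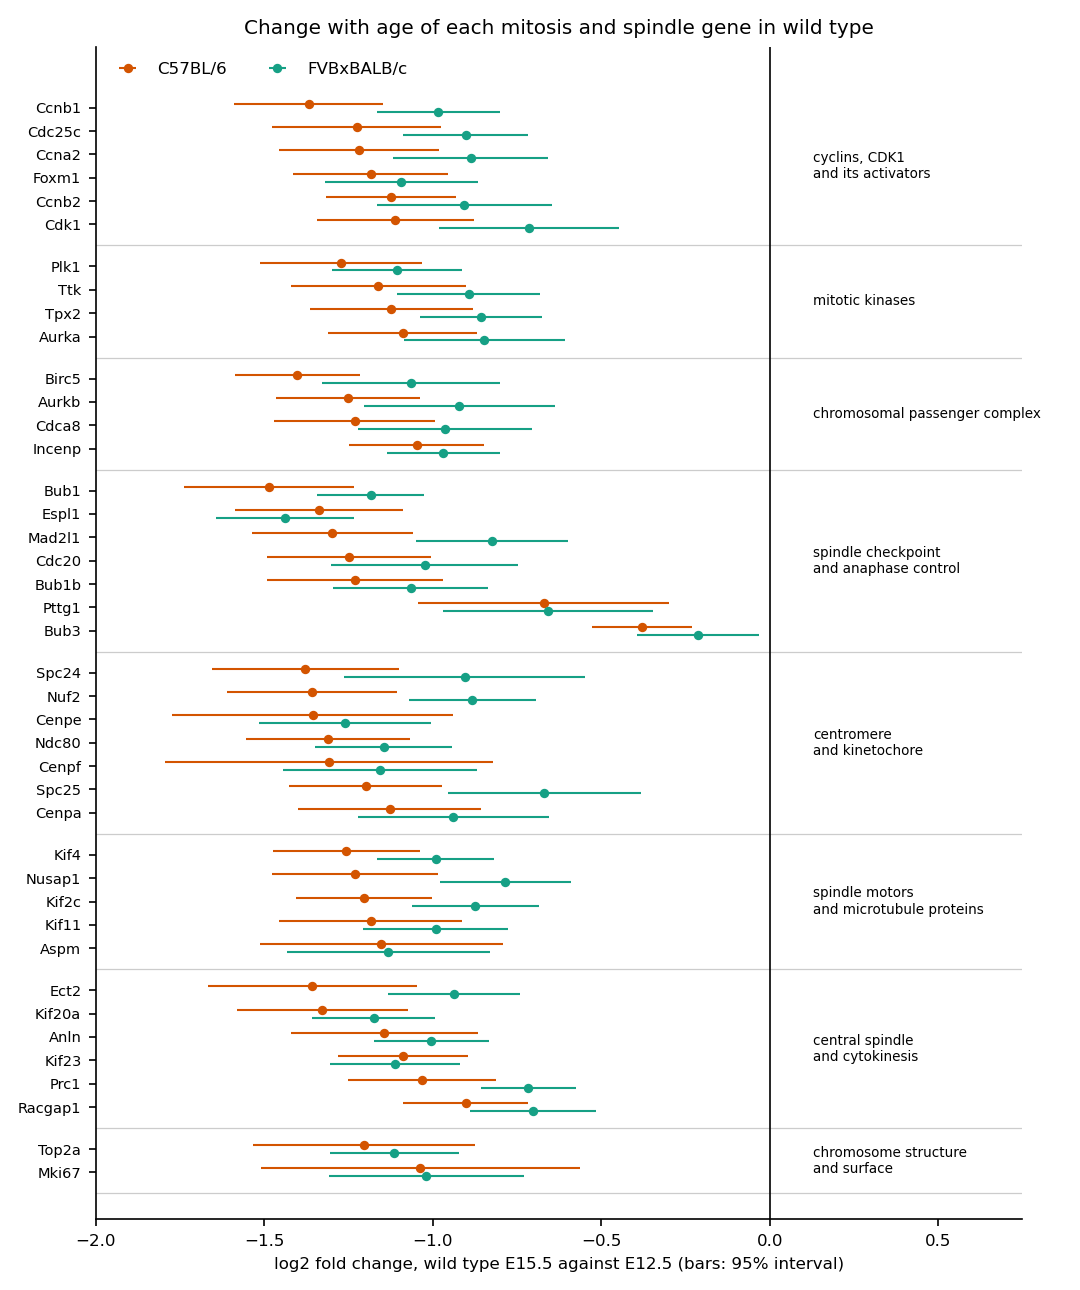
Log2 fold change from E12.5 to E15.5 in WT (horizontal axis) for each of the 41 genes, grouped by role, in C57BL/6 (orange) and FVBxBALB/c (green). Bars are 95% intervals computed from the edgeR F statistic. Every point is below 0; Bub3 (-0.38 and -0.21) and Pttg1 (-0.67 and -0.66) lie nearest to 0, and Bub1 (-1.49) and Espl1 (-1.44) farthest from it.

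All 6 genes of the cyclins, CDK1 and its activators fell in both backgrounds. Cdk1, the kinase that starts mitosis, gave 214, 172 and 194 CPM in the 3 C57BL/6 WT libraries at E12.5 and 84.9, 83.1, 93.5, 90.2 and 95.8 at E15.5. In FVBxBALB/c WT it gave 137, 171, 143 and 202 CPM at E12.5 and 103, 93.5, 104 and 97.2 at E15.5. The ages did not overlap in either background. Cdk1 fell by 1.11 on the log2 scale in C57BL/6 (SE 0.111, adjusted p = 4.42e-07) and by 0.72 in FVBxBALB/c (SE 0.126, adjusted p = 1.85e-04). Its partner Ccnb1 (cyclin B1) gave 167, 129 and 129 CPM and then 50.3, 52.3, 52.5, 61.6 and 57.3 in C57BL/6, and 115, 132, 118 and 145 CPM and then 69.1, 63, 60.8 and 64.6 in FVBxBALB/c. That was 2.58 times lower in C57BL/6 (log2 -1.37, SE 0.104, adjusted p = 3.21e-08) and 1.98 times lower in FVBxBALB/c, with no overlap. Ccna2 ran at 412, 323 and 332 CPM at E12.5 and at 154, 142, 154, 157 and 156 at E15.5 in C57BL/6, 2.33 times lower. Ccnb2 (cyclin B2) fell 2.18-fold and 1.87-fold, and the transcription factor Foxm1, which drives genes of this class, 2.27-fold and 2.13-fold, in C57BL/6 and FVBxBALB/c. Cdc25c, a phosphatase that activates CDK1, was 2.34 and 1.87 times lower.

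All 4 mitotic kinase genes fell. Plk1, the Polo kinase of spindle assembly and mitotic exit, stood at 119, 116 and 115 CPM in C57BL/6 WT at E12.5 and at 43.8, 45.9, 53.9, 50.2 and 47.6 at E15.5. In FVBxBALB/c it stood at 87.5, 99.2, 106 and 109 CPM and then at 46.4, 43.7, 48.8 and 48.4. The older libraries were all lower, by 2.41 and 2.15 times. Aurka, the Aurora kinase of the centrosome and spindle pole, ran at 91.9, 77 and 87.9 CPM and then at 41.3, 37.2, 36.9, 45.6 and 40.3 in C57BL/6, and fell 2.13-fold there and 1.80-fold in FVBxBALB/c. Tpx2, which activates Aurora A on microtubules, was 2.18 and 1.81 times lower, and the checkpoint kinase Ttk 2.24 and 1.86 times lower.

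The chromosomal passenger complex places Aurora B at centromeres and later at the central spindle, and all 4 of its genes fell. Birc5 (survivin), which recruits the complex to chromatin, gave 101, 91.3 and 99.3 CPM at E12.5 and 33.3, 36.2, 37.2, 38.2 and 38.6 at E15.5 in C57BL/6 WT. This was the fall with the smallest adjusted p among the 41 in that background (log2 -1.40, SE 0.0881, 2.64 times lower, adjusted p = 5.56e-09, edgeR). In FVBxBALB/c Birc5 gave 83.9, 96.9, 81.1 and 117 CPM and then 46.2, 44.2, 47.8 and 43, or 2.09 times lower. Its kinase subunit Aurkb gave 117, 107 and 113 CPM and then 44, 41.8, 47.9, 50.4 and 51.3 in C57BL/6, and was 2.38 times lower there and 1.89 times lower in FVBxBALB/c. The scaffold Incenp fell 2.07-fold and 1.96-fold, and Cdca8 (borealin) 2.35-fold and 1.95-fold.

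The checkpoint and anaphase genes held both the largest and the smallest falls. Bub1, a kinetochore kinase of the checkpoint, gave 199, 143 and 138 CPM in C57BL/6 WT at E12.5 and 59.3, 59.2, 49.6, 57.2 and 60.2 at E15.5. Its fall of 1.49 on the log2 scale (SE 0.119, 2.80 times lower, adjusted p = 4.94e-08) was the largest of the 41 in that background. In FVBxBALB/c Bub1 gave 153, 170, 163 and 174 CPM and then 79.7, 74.4, 66.8 and 69.6 (log2 -1.19, SE 0.0750, 2.27 times lower, adjusted p = 8.41e-09). Its relative Bub1b (BUBR1), part of the complex that inhibits the anaphase-promoting complex, was 2.35 and 2.09 times lower. Cdc20, the activator that this inhibitor holds back, stood at 155, 143 and 157 CPM and then at 63.5, 57.8, 61, 68.6 and 68 in C57BL/6, and was 2.38 and 2.03 times lower. Mad2l1 (MAD2) fell 2.46-fold and 1.77-fold.

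Separase (Espl1), the protease that cuts cohesin at anaphase, gave the largest fall in FVBxBALB/c, from 73.6, 88.2, 95.2 and 84.9 CPM to 34.9, 32.3, 28 and 31.1 (log2 -1.44, SE 0.0970, 2.71 times lower, adjusted p = 1.27e-08). In C57BL/6 it went from 102, 89.3 and 81.9 to 38.7, 40.6, 30.8, 36.6 and 33.6 CPM, 2.53 times lower. Bub3 stood apart: 176, 165 and 182 CPM at E12.5 and 132, 124, 146, 130 and 138 at E15.5 in C57BL/6, 1.30 times lower (log2 -0.38, SE 0.0703, adjusted p = 2.10e-04). In FVBxBALB/c it gave 143, 158, 149 and 187 CPM and then 135, 128, 145 and 142, groups that overlapped, and fell by 0.21 on the log2 scale (SE 0.0860, adjusted p = 0.0487). That call was lost without WT replicate 2 or 4 at E12.5 or WT replicate 1, 2 or 4 at E15.5 (-0.13 to -0.23, adjusted p = 0.0688 to 0.181, edgeR). Securin (Pttg1), which holds separase inactive until anaphase, gave 10, 7.29 and 9.33 CPM and then 4.99, 5.36, 7.88, 4.66 and 4.87 in C57BL/6, where WT replicate 3 at E15.5 reached the E12.5 range. Its fall was 1.59-fold there (SE 0.176 on the log2 scale, adjusted p = 0.00372) and 1.58-fold in FVBxBALB/c (adjusted p = 0.00141).

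Kinetochore genes fell together in C57BL/6, with a median of -1.31 over the 7. Ndc80, the microtubule-binding core of the outer kinetochore, gave 90.7, 66.5 and 69.9 CPM and then 30.8, 29.4, 30.2, 31.5 and 30.8 in C57BL/6 WT, 2.48 times lower (adjusted p = 1.21e-07). In FVBxBALB/c it gave 63.6, 76.6, 80.4 and 90.7 CPM and then 35.7, 36.3, 35.4 and 33.3, 2.21 times lower. Its partners in the same complex were lower as well: Nuf2 by 2.56 and 1.84 times, Spc24 by 2.60 and 1.87 times and Spc25 by 2.30 and 1.59 times. Cenpa, the histone H3 variant that marks centromeres, fell 2.19-fold and 1.92-fold. Cenpf, a large protein of the corona of the kinetochore, was the least even across replicates: 445, 199 and 186 CPM at E12.5 and 117, 128, 80.9, 113 and 119 at E15.5 in C57BL/6. It was 2.48 times lower there (SE 0.228 on the log2 scale, adjusted p = 1.84e-04) and 2.23 times lower in FVBxBALB/c. The motor Cenpe was 2.56 and 2.40 times lower.

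Spindle motors and microtubule proteins followed the same course. Kif11 (Eg5), the motor that pushes spindle poles apart, gave 410, 298 and 279 CPM and then 151, 152, 135, 145 and 141 in C57BL/6 WT, 2.27 times lower, and 251, 300, 325 and 306 CPM and then 170, 164, 123 and 137 in FVBxBALB/c, 1.99 times lower. Aspm, a microcephaly protein that sits at spindle poles, gave 237, 137 and 122 CPM and then 80.7, 81.2, 64.5, 76.3 and 69.5 in C57BL/6. It was 2.22 and 2.19 times lower, with no overlap of the ages in either background. The microtubule depolymerase Kif2c fell 2.30-fold and 1.83-fold, the chromokinesin Kif4 2.39-fold and 1.99-fold, and Nusap1, which bundles spindle microtubules, 2.35-fold and 1.72-fold.

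The 6 central spindle and cytokinesis genes also fell. Kif23, the motor of the centralspindlin complex, gave 121, 109 and 103 CPM and then 53.3, 52.1, 52.2, 53.8 and 49.8 in C57BL/6, and 129, 140, 153 and 139 and then 74.7, 67.8, 59.7 and 57.4 in FVBxBALB/c. It was 1 of only 2 genes whose fall was not larger in C57BL/6 (2.13-fold against 2.16-fold); the other was Espl1. Prc1, which crosslinks antiparallel microtubules at the midzone, gave 307, 259 and 253 CPM and then 131, 129, 139, 139 and 130 in C57BL/6, 2.04 times lower, and was 1.64 times lower in FVBxBALB/c. Racgap1, the other subunit of centralspindlin, fell 1.87-fold and 1.63-fold. Ect2, the exchange factor it recruits, was 2.56 and 1.91 times lower. Kif20a was 2.51 and 2.26 times lower, and Anln 2.21 and 2.01 times lower.

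Top2a gave 1200, 757 and 714 CPM and then 390, 412, 324, 418 and 386 in C57BL/6 WT, 2.31 times lower (adjusted p = 7.81e-06). In FVBxBALB/c it gave 887, 1030, 1190 and 1060 CPM and then 542, 504, 424 and 456, 2.16 times lower (adjusted p = 6.59e-08). Mki67 (Ki-67), the coat of mitotic chromosomes and the usual stain for cycling cells, gave 965, 466 and 437 CPM and then 308, 336, 223, 333 and 318 in C57BL/6. Its first library was far above the other 2, and the fall of 2.05-fold had a wide error (SE 0.222 on the log2 scale, adjusted p = 9.99e-04). In FVBxBALB/c Mki67 gave 709, 861, 1090 and 757 CPM and then 499, 439, 356 and 392, 2.03 times lower.

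The genes also fell with age in both mutant genotypes. In KO tissue 41 of 41 were lower at E15.5 (27% of all genes; median -1.24, or 2.37 times lower), from Birc5 at -1.57 (SE 0.0880) to Bub3 at -0.41, and all 41 had every E15.5 library below every E12.5 library (25.3% of all genes; 28.8% had them above). None had an estimate above 0 (49.4% of all genes did). Mki67 had the largest adjusted p, 0.026 (log2 -0.63, SE 0.224), and lost its call without KO replicate 1 (-0.61) or 3 (-0.51) at E12.5, without KO replicate 3 (-0.59) or 4 (-0.57) at E15.5, and without both of the latter (-0.50, adjusted p = 0.119, edgeR). In Tg tissue 40 of 41 were lower (22.5% of all genes; median -0.84, or 1.79 times lower), with Bub1 at -1.14 (SE 0.0749). Bub3 was the exception at -0.20 (adjusted p = 0.0741), and the only one whose ages overlapped (40 of 41 did not, 21% of all genes).

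Lists of neighbouring genes put this fall in context. Of 76 other mitotic genes 73 were lower with age in C57BL/6 WT and 71 in FVBxBALB/c (medians -1.17 and -0.92), with Cenpn, which binds centromeric chromatin, at -1.31 and -1.20. DNA replication genes were lower in 40 of 40 and 38 of 40 (medians -1.12 and -0.96), and the centrosome and spindle genes of primary microcephaly, which share Aspm and Cenpe with the set, in 14 of 14 and 14 of 14 (medians -0.98 and -0.97). Of 14 core subunits of the anaphase-promoting complex and its second activator Fzr1, 6 of 15 were lower in C57BL/6 (28.2% of all genes) and 0 higher, and 3 were lower (25.1% of all genes) and 2 higher in FVBxBALB/c (medians -0.10 and -0.02). Fzr1 did not pass in either background. Among 18 MuvB, B-MYB, E2F and pocket protein genes, 14 were lower and 3 higher in C57BL/6, and 12 lower and 1 higher in FVBxBALB/c. E2f7 (-1.37 and -1.40), Mybl2, which encodes B-MYB (-1.39 and -1.31), and E2f8 (-1.08 and -1.10) fell in both backgrounds (C57BL/6 first).

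Cell type markers moved with age in the same libraries. Neuron markers were higher in 12 of 12 in both backgrounds (medians 1.64 and 1.49); their summed level was 2893 to 4354 CPM at E12.5 and 9609 to 10150 at E15.5 in C57BL/6 WT. Radial glia markers were lower in 8 of 12 in each background (medians -0.73 and -0.68), with 3 and 2 higher. Intermediate progenitor markers were mixed, with 3 of 8 higher and 2 lower in C57BL/6 and 4 higher and 1 lower in FVBxBALB/c. Meningeal and mesenchymal markers were lower in 11 and 13 of 14 (medians -2.86 and -3.89), at 693.3 to 1944 CPM and then 99.56 to 236.3 in C57BL/6 WT, and none was at 0 in all libraries of a group. Erythroid markers were lower in 8 and 6 of 10. Their sum was 2175 to 4027 CPM and then 235 to 345 in C57BL/6 WT. In FVBxBALB/c WT it was 2404 to 9716 and then 279.4 to 538.8. Much of it at E12.5 was the globin Hbb-y, whose WT mean went from 2400 to 14.8 CPM and from 3320 to 30.8 (C57BL/6 first). The globin Hbb-bs went the other way, from 23.4 to 64.8 and from 93.4 to 192. Hbb-b1 rose only in FVBxBALB/c (25.3 to 45.7, against 82.8 to 70.1), so the sum was not a count of cells. Hem and choroid plexus markers were lower in 9 of 10 in each background. Even so, their sum reached 660.5 CPM in a C57BL/6 WT library at E15.5, against 288.8 to 422.6 at E12.5. In FVBxBALB/c WT it reached 480.2 at E15.5, against 257.8 to 340.2. The WT mean of Ttr, a marker of this list, went from 109 to 182 CPM and from 95 to 108 (C57BL/6 first). Caudal brain markers were lower in 5 of 11 and 9 of 10, with FVBxBALB/c WT at 225.3 to 882.2 CPM and then 87.64 to 141.6. The part of all these cells in the fall of the mitotic genes was not tested.

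The estimated fall was larger in C57BL/6 for 39 of 41 genes (50.5% of all genes had an interaction above 0), and the difference passed for none of them. The interaction of age and background called 0 of 41 (0.0305% of all genes), with 15 at an unadjusted p under 0.05 (6.62% of all genes) and a median difference of 0.25 on the log2 scale. DESeq2 also called 0 and gave 14 at an unadjusted p under 0.05. The genes with the smallest p were Nuf2 (0.49, SE 0.154, adjusted p = 0.562 by edgeR), Mad2l1 (0.49), Spc25 (0.55) and Nusap1 (0.47); Espl1 was lowest at -0.08. Without C57BL/6 WT replicate 1 at E12.5 the median was 0.17 and 4 genes were under that p; without FVBxBALB/c WT replicate 1 at E12.5 these were 0.18 and 8, without FVBxBALB/c WT replicate 1 at E15.5 0.22 and 9, and without any other 1 library 11 to 21. As a description across the 41 genes, the age changes of the backgrounds gave Pearson's r = 0.717 and Spearman's rho = 0.487; without Bub3 and Pttg1 these were 0.477 and 0.404. By promoter element, the median age changes were -1.18 for 25 genes with TTTGAA and -1.36 for 8 without in C57BL/6, and -0.99 and -0.93 in FVBxBALB/c.

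Loss of Kat6b at E12.5 gave 0 of 41 called genes, where 0.0062% of all genes were called. With edgeR 0 genes of the set were under an unadjusted p of 0.05 (5.22% of all genes), and DESeq2 called 0 with 1 under that p. Estimates were below 0 for 37 of 41 (53.1% of all genes) with a median of -0.11, from Mki67 at -0.48 (SE 0.254, adjusted p = 0.881 by edgeR) to Birc5 at 0.06 (SE 0.0993). The 95% intervals of the genes lay within -1.02 (Mki67) and 0.455 (Pttg1). The genotypes overlapped for all 41 (4.47% of all genes had every KO library below every WT library, and 2.84% above). Estimates above 0 were 4 (46.9% of all genes). Cdk1 shows the typical picture, with 208, 185 and 158 CPM in KO against 214, 172 and 194 in WT. Kif23 gave 119, 113 and 101 CPM in KO against 121, 109 and 103 in WT, with an estimated difference of 0.00 on the log2 scale.

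The median moved with single libraries: it was 0.003 without WT replicate 1, -0.032 without KO replicate 4, -0.188 without KO replicate 1, and -0.153 to -0.098 without any 1 of the other 3. Genes under an unadjusted p of 0.05 numbered 0 to 6 across these, with 6 without WT replicate 4. Cenpf, with the second largest estimate (-0.42, SE 0.260), gave 207, 238 and 175 CPM in KO against 445, 199 and 186 in WT, and Mki67 457, 516 and 365 against 965, 466 and 437. In both, WT replicate 1 was far above all other libraries, KO and WT. Without it 24 of 41 estimates were above 0 and 20 had turned sign, among them Cenpf (0.11), Aspm (0.003) and Ect2 (0.001); without KO replicate 4, 15 were above 0. In that library the 41 genes stood 0.243 above the mean of the E12.5 libraries of the background (median log2 deviation), while neuron markers stood at -0.606 and ventral telencephalic markers at -1.06. The excess was larger for genes with long transcripts: 0.866 for Cenpf, Mki67, Aspm and Cenpe, which exceed 7500 bases, and 0.216 for the other 37. Over all genes kept, the 857 that long stood at 0.234 and the rest at -0.007. By genotype, meningeal and mesenchymal markers summed to 559.8 to 2924 CPM in KO (median 1397). In WT they summed to 693.3 to 1944 (median 904.8). The part of these differences in the KO estimates was not tested.

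At E15.5 loss of Kat6b again gave 0 of 41 called genes, and 0% of all genes were called. With edgeR 3 of 41 were under an unadjusted p of 0.05 (2.83% of all genes), 8 with litter as a block, and DESeq2 called 0 with 4 under that p. Estimates were below 0 for 39 of 41 (47% of all genes) and above 0 for 2 (53%), the median was -0.13, and the 95% intervals of the genes lay within -0.56 (Ttk) and 0.44 (Cenpf). Ttk gave 27.7, 24.2, 19.2, 24.7 and 30.5 CPM in KO against 32.9, 30, 32.4, 36 and 27.9 in WT (log2 -0.32, SE 0.111, adjusted p = 1 by edgeR). Its groups overlapped only through KO replicate 5, which lay above WT replicates 2 and 5, and 0 of 41 genes had every KO library below every WT library (0.478% of all genes). Aurka gave 35.8, 36.3, 29.9, 30.4 and 37.3 CPM in KO against 41.3, 37.2, 36.9, 45.6 and 40.3 in WT, and Foxm1 82.5, 72.7, 60.5, 58.8 and 79.6 against 88.5, 87.8, 76.5, 89.7 and 76.6. Racgap1 came next, at 162, 165, 133, 136 and 172 CPM in KO against 172, 167, 169, 166 and 183 in WT (-0.16, SE 0.0779). Same-numbered embryos share a litter, and within litters Racgap1, Aurka, Ccnb1 and Bub1 were lower in KO in 5 of 5 (4 of 41 genes, against 3.08% of all genes), and Ttk and Foxm1 in 4 of 5. Pttg1 (0.10) and Cenpf (0.005) were the only ones with estimates above 0.

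The KO libraries were not even across the set. KO replicates 3 and 4 had the lowest CPM of all 10 libraries for Cdk1, Ccna2, Ccnb1, Plk1, Bub1b, Kif11 and Prc1, among others; Prc1, for example, gave 94.6 and 105 there against 129 to 139 in the other 8. Their median deviations were -0.270 and -0.273, against 0.031 to 0.125 in the other 8 libraries. Without these 2 libraries the median KO estimate was -0.010 and 0 genes were under an unadjusted p of 0.05. Leaving out 1 of the other KO libraries moved both the other way: 10 genes and a median of -0.18 without KO replicate 5, 7 genes and -0.16 without KO replicate 1, and 6 genes and -0.17 without KO replicate 2. Without WT replicate 4 or KO replicate 4 alone 1 gene was under that p. No gene was called in any of these. In the same 2 libraries meningeal and mesenchymal markers stood at 0.941 and 1.14 and hem and choroid plexus markers at 0.610 and 0.565. Over the whole list, 14 of 14 meningeal and mesenchymal markers had KO estimates above 0 (none called), with summed levels of 92.75 to 366.6 CPM in KO and 99.56 to 236.3 in WT, and none was at 0 in all libraries of a group. WT replicate 3 also had high meningeal markers (0.696) but mitotic genes at 0.048. By library, other mitotic genes deviated by -0.249 to 0.101 in KO and 0.014 to 0.117 in WT. DNA replication genes stood at -0.218 to 0.072 and 0.024 to 0.141, in the same order. Radial glia markers stood at -0.052 to -0.014 and 0 to 0.059, and intermediate progenitor markers at -0.203 to 0.093 and -0.054 to 0.231. Neuron markers stood at -0.083 to 0.055 and -0.049 to 0.107. The part of these cells and lists in the KO estimates was not tested.

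**Figure D4:**
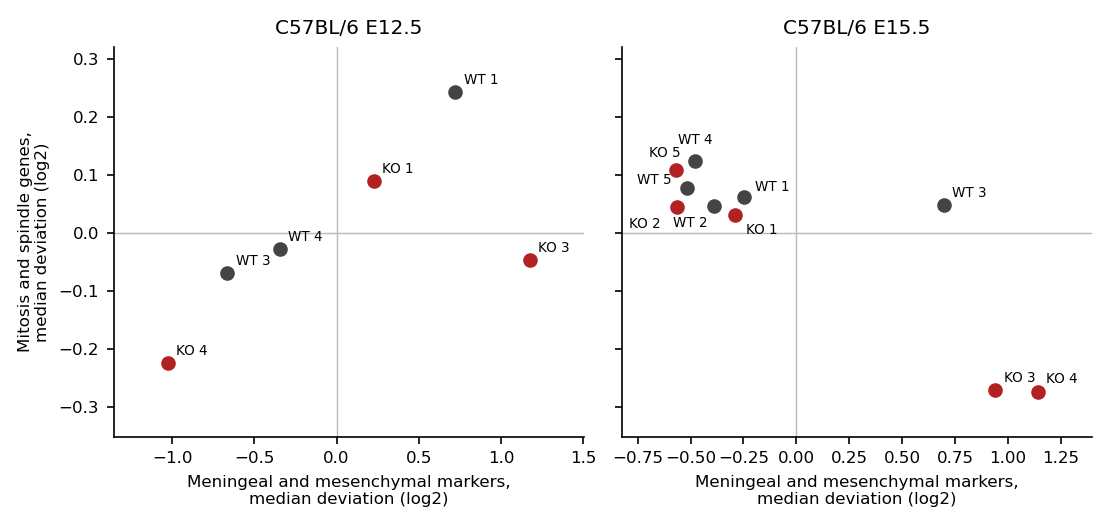
Median log2 deviation of the 41 genes (vertical axis) and of 14 meningeal and mesenchymal markers (horizontal axis) from the mean of the C57BL/6 libraries of the same age, 1 point per library, WT in grey and KO in red. At E15.5 KO replicates 3 and 4 lie low (-0.270 and -0.273) with high markers, while WT replicate 3 has high markers (0.696) and mitotic genes near 0; at E12.5 WT replicate 1 lies highest (0.243).

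No gene passed a test of the difference of the KO effect between the ages. The interaction called 0 of 41 (0% of all genes), with 0 under an unadjusted p of 0.05 by edgeR and by DESeq2 (2.72% of all genes by edgeR) and a median of -0.03 (45.5% of all genes were below 0). Values ran from Foxm1 at -0.21 to Cenpf at 0.43, and the latter became -0.10 without WT replicate 1 at E12.5. The median lay between -0.140 (without WT replicate 1 at E12.5) and 0.083 (without KO replicates 3 and 4 at E15.5). These comparisons share their libraries with the KO comparisons above.

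Overexpression of Kat6b at E12.5 called 0 of 41 genes, where 0.0129% of all genes were called. By edgeR 4 of 41 were under an unadjusted p of 0.05 (6.68% of all genes), DESeq2 called 0 with 4 under that p, and the estimates were balanced, with 20 below 0 (52.6% of all genes) and 21 above 0 (47.4%) and a median of 0.004. Mad2l1 gave 94.9, 130, 115 and 120 CPM in Tg against 84.4, 104, 75.6 and 99.4 in WT (log2 0.34, SE 0.105, adjusted p = 0.724 by edgeR). The highest WT library exceeded the lowest Tg library. Espl1 gave 77, 67, 73.9 and 68.3 CPM in Tg against 73.6, 88.2, 95.2 and 84.9 in WT (log2 -0.26, SE 0.0932, adjusted p = 0.724 by edgeR), with overlap at WT replicate 1. Spc25 (0.32, SE 0.133) and Nuf2 (0.22, SE 0.0875), both of the NDC80 complex, were the other 2. Of these 4 genes, the 3 with estimates above 0 have short counted transcripts (Mad2l1 1725, Spc25 1582 and Nuf2 2405 bases) and Espl1 a long one (6630 bases). Across the 41 genes the deviation of a library from the mean correlated with transcript length at a Spearman rho of 0.674, -0.662, -0.642 and -0.657 in the 4 Tg libraries and 0.481, 0.230, 0.777 and -0.547 in the 4 WT libraries, a description over genes of 1 library; its part in these values was not tested. Without 1 library the median lay between -0.078 and 0.070, and genes under an unadjusted p of 0.05 numbered 1 (without WT replicate 3), 2 (without Tg replicate 2) or 3 to 5. The 95% intervals of the genes lay within -0.46 (Mki67) and 0.60 (Spc25). For all 41 the genotypes overlapped (1.2% of all genes had every Tg library below every WT library and 1.62% above), and Cdk1 gave 136, 205, 183 and 181 CPM in Tg against 137, 171, 143 and 202 in WT. Of 14 meningeal and mesenchymal markers 11 had Tg estimates below 0 (none called), with summed levels of 396.7 to 1814 CPM in Tg and 567 to 2696 in WT; their part here was not tested.

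At E15.5 all 41 estimates were above 0 in Tg, and each was small. No gene of the set was called (0 of 41, 0.0129% of all genes), 4 were under an unadjusted p of 0.05 by edgeR (2.22% of all genes), and DESeq2 called 0 with 5 under that p. That count was 0 without WT replicate 3 or 4 or Tg replicate 1 or 2, and 1 without the filter on low counts or in 1 fit of all 32 libraries. The median was 0.12 on the log2 scale, while 51% of all genes had estimates above 0. Kif23 gave 83.4, 76.7, 66.2 and 75.9 CPM in Tg against 74.7, 67.8, 59.7 and 57.4 in WT (0.22, SE 0.0911, adjusted p = 1 by edgeR). Its groups overlapped, as did those of Plk1 (0.19, SE 0.0913), at 55.1, 60, 52.7 and 45.9 CPM against 46.4, 43.7, 48.8 and 48.4. Ndc80 gave 41.8, 40.9, 38.9 and 41.5 CPM in Tg against 35.7, 36.3, 35.4 and 33.3 in WT (0.21, SE 0.0970), with every Tg library above every WT library. Bub1b, at 114, 116, 111 and 115 against 107, 99.8, 96.4 and 96.3, was separated too, as were Incenp and Kif4, making 4 of 41 (1.5% of all genes). Anln had an estimate of 0.18 (SE 0.0819), and Spc24 the lowest, 0.001, whose sign turned in several alternatives. The 95% intervals lay within -0.36 (Spc24) and 0.45 (Mki67).

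Summed over the set, Tg gave 4506 ± 207 CPM and WT 4121 ± 294 (n = 4 each), with overlapping ranges, and Tg replicate 1 (median deviation 0.142) and Tg replicate 2 (0.112) stood highest. DNA replication genes were above 0 in 31 of 40 (median 0.10), radial glia markers in 8 of 12 (median 0.15) and neuron markers in 3 of 12 (median -0.04), with 0 called in each list. By library, other mitotic genes deviated by -0.028 to 0.088 in Tg and -0.149 to 0.062 in WT. Intermediate progenitor markers stood at -0.005 to 0.145 in Tg and -0.165 to 0.077 in WT. The part of these lists in the Tg estimates was not tested. The interaction of age and Tg called 0 of 41 (0% of all genes), with 5 under an unadjusted p of 0.05 by edgeR and 5 by DESeq2 (4.04% of all genes by edgeR). Espl1 had the largest value, 0.43 (SE 0.135, adjusted p = 1 by edgeR), followed by Kif23 (0.34), Top2a (0.29) and Kif4 (0.27). The median was 0.11 with 33 of 41 above 0 (52.4% of all genes). It was 0.20, with 11 genes under an unadjusted p of 0.05, without WT replicate 1 at E12.5, 0.056 without Tg replicate 1 and 0.069 without WT replicate 4 at E12.5. The count was 2 without WT replicate 3 or Tg replicate 3 at E12.5, or WT replicate 3 or Tg replicate 1 at E15.5, and also in 1 fit of all 32 libraries.

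**Figure D5:**
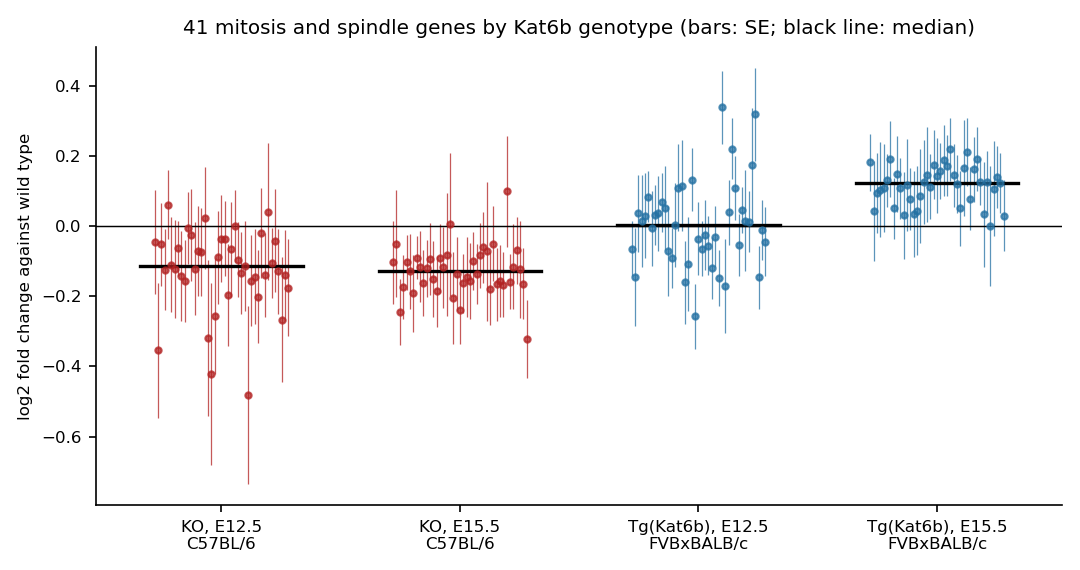
Log2 fold change against WT of the same age and background for each of the 41 genes (points with SE bars, in alphabetical order within each comparison), with the median as a black line. The medians are -0.11 and -0.13 for KO at E12.5 and E15.5 and 0.004 and 0.12 for Tg, and no gene passed an adjusted p of 0.05 in any of the 4.

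Between the WT embryos of the backgrounds the largest difference was securin. Pttg1 gave 10, 7.29 and 9.33 CPM in C57BL/6 and 46.5, 56.8, 56 and 68.9 in FVBxBALB/c at E12.5, and 4.99, 5.36, 7.88, 4.66 and 4.87 against 37.7, 34.4, 42.9 and 29.7 at E15.5. No libraries came near to overlapping, and the fold was 6.57 (95% interval 5.08 to 8.50, adjusted p = 4.16e-12, edgeR fit of all 32 libraries) at E12.5 and 6.70 (5.36 to 8.38, adjusted p = 9.81e-14) in the older embryos. KO and Tg libraries were at the level of their own background: 7.49, 10.7 and 9.15 CPM in KO and 47.6, 63.1, 57.1 and 63.3 in Tg at E12.5. Separase, which securin inhibits, was at -0.15 in FVBxBALB/c against C57BL/6 at E15.5 (SE 0.106, adjusted p = 0.326).

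At E12.5 genes of the set were called about as often as all genes. By edgeR, 13 of 41 were under an unadjusted p of 0.05 (26.2% of all genes). Of the 41, 4 were called (12.8% of all genes): Pttg1, Kif23 (0.36, SE 0.0976, adjusted p = 0.0136) and Ttk (0.42, SE 0.123, adjusted p = 0.0229) were higher in FVBxBALB/c and Spc24 was lower (-0.54, SE 0.163, adjusted p = 0.0272). Kif23 gave 129, 140, 153 and 139 CPM in FVBxBALB/c against 121, 109 and 103, and Ttk 90.6, 93, 97.6 and 93.6 against 82.3, 66.9 and 64; neither overlapped. Spc24 gave 38.4, 45.6, 31.1 and 46.1 CPM against 68.1, 53.7 and 56.6. Every library was separated for 3 genes as higher (6.7% of all genes) and 2 as lower (Spc24 and Plk1; 8.03%). The count was unstable: 10 without C57BL/6 replicate 1, 2 without C57BL/6 replicate 3, 1 without C57BL/6 replicate 4 or FVBxBALB/c replicate 3, and 7 without FVBxBALB/c replicate 4, with Pttg1 kept throughout.

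At E15.5 about as many genes of the set were called higher in FVBxBALB/c cortex as were not called. Of the 41, 21 were called higher (13.9% of all genes) and 0 lower (11.3% of all genes), with a median of 0.27 and 7 estimates below 0 (50.9% of all genes), and 24 had every FVBxBALB/c library above every C57BL/6 library (12.4% of all genes). Nusap1 gave 175, 165, 143 and 148 CPM against 90.3, 92.1, 97, 92.7 and 93.5, or 1.74-fold (adjusted p = 1.65e-06). Ttk gave 59.9, 52.5, 44.1 and 45.2 CPM against 32.9, 30, 32.4, 36 and 27.9, or 1.63-fold (adjusted p = 2.94e-05). Prc1 gave 196, 183, 178 and 190 CPM against 131, 129, 139, 139 and 130, or 1.44-fold (adjusted p = 3.63e-05). Kif4 (0.49), Bub1 (0.39), Top2a (0.36), Mki67 (0.52) and Ccna2 (0.29) were among the others that were higher. Cdc20 (0.13, adjusted p = 0.491), Aurka (-0.005) and Plk1 (-0.003) were near 0, and Cenpa was lowest at -0.20 (adjusted p = 0.27). The count was 13 without the filter on low counts and 11 without FVBxBALB/c WT replicate 1. Of the 76 other mitotic genes 36 were higher and 6 lower (median 0.29), of the 40 DNA replication genes 9 were higher and 1 lower (median 0.16), and of 12 radial glia markers 4 were higher and 1 lower; neuron markers had 1 of 12 higher. The backgrounds were sequenced in separate batches, so these differences cannot be told apart from batch.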

How the data were processed

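Whole-tissue RNA (RNeasy kit with DNase, TruSeq RNA prep kit v2, 66 bp paired-end NextSeq500 reads) was counted per gene by the authors with featureCounts on mm10, per the submitters' processing notes and the labels; the aligner, annotation and strand setting were not given in the sources used here. The deposited values were raw counts, used unchanged; 848 of 27179 entries had no gene name and were left out (0.305 to 0.493% of counts, 2.00% in KO replicate 3 at E15.5). The kit does not mark strand, and 10 of the 41 genes overlap another annotated gene (Ccna2, Foxm1, Aurka, Cdc20, Kif4, Nusap1, Kif20a, Prc1, Ect2 and Anln), so reads there cannot be told apart. Tests were edgeR 4.0.16 quasi-likelihood F tests (R 4.3.3, limma 3.58.1, TMM scaling, filterByExpr with a minimum count of 10 and total of 15, robust), with 1 fit per background (16 libraries, 12 residual degrees of freedom) and 1 of all 32 for comparisons of backgrounds, Benjamini-Hochberg adjustment over all genes kept, and a threshold of 0.05. CPM were computed on the TMM scale of each background. Scripts were tested on simulated data. DESeq2 1.42.0, other scaling, no filter, blocks and left-out libraries were the alternatives. The 41 genes and all lists were chosen with earlier results of these data known. Named genes were 22 chosen by role, the up to 4 with the smallest p and the extremes of each comparison, and up to 3 per list. Same-numbered C57BL/6 libraries of an age come from 1 litter per the labels (E12.5 replicates 3 and 4 share 1); their deviations correlated at 0.429, -0.432 and 0.38 at E12.5 and 0.208, -0.16, 0.315, -0.094 and 0.411 at E15.5. No libraries held the same values.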

Additional observations from a re-analysis of the deposited data

Results flagged for a closer look

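Among 138 groups of 4 or 5 libraries tested for a library far from the others, 5 values in 4 libraries stood out, where chance flags about 1 in 20 groups. In C57BL/6 WT replicate 3 at E15.5, Mki67 was at 223 CPM (the others 308 to 336) and Bub1 at 49.6 (57.2 to 60.2). Ccna2 was at 142 CPM in C57BL/6 WT replicate 2 at E15.5 (the others 154 to 157). Aurkb was at 53.1 CPM in FVBxBALB/c WT replicate 1 at E15.5 (46.6 to 47.1). Kif11 was at 175 CPM in Tg replicate 2 at E15.5 (167 to 168). None of 123 interaction tests over the 41 genes passed the threshold.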

How the results depend on the processing

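Counts of called genes were within 1.5 times the reported ones in 192 of 199 combinations of comparison and alternative. The age counts stayed between 39 and 41 in all of them, and the KO, Tg and interaction counts at 0. The other 7 concern the backgrounds: at E12.5 (4 reported) 1 to 10 when 1 library was left out, and at E15.5 (21 reported) 13 without the filter and 11 to 19 when 1 library was left out. For the genes named in each comparison, 1914 single values kept direction and side of the threshold, 22 lost and 2 gained a call. Among these named values signs turned in 12 (over all 41 genes, 20 turned in KO at E12.5 without WT replicate 1 and 11 without KO replicate 4): without C57BL/6 WT replicate 1 at E12.5, Aspm (0.003), Cenpf (0.105) and Ect2 (0.001) in KO and Cenpf in the interaction of age and KO (-0.099), which with another library left out reached -0.532, -0.64, -0.392 and 0.644 in that order; and Spc24 in Tg at E15.5, reported as 0.001, which was -0.007 without the filter, -0.005 in 1 fit of all libraries, -0.011 with the replicate block, and -0.165 to -0.001 (-0.058, -0.001, -0.054, -0.165 and -0.045) when 1 library was left out. Over all 41 genes signs turned in other comparisons too. In KO at E15.5, 17 turned without KO replicates 3 and 4. In the interaction of age and KO, 19 turned without KO replicate 1 at E12.5. There 18 turned without KO replicates 3 and 4 at E15.5. At E12.5, 10 turned in Tg without WT replicate 1, and 10 between the backgrounds without C57BL/6 replicate 1. The cause was not tested. With the replicate block the KO medians were -0.109 at E12.5 and -0.134 at E15.5, and the block moved no count of calls by over 1.5 times. In FVBxBALB/c, where numbers name no litter, it ended the call of Bub3 with age in WT (-0.209, adjusted p = 0.0581, edgeR). Without both C57BL/6 replicates 5 at E15.5 the age count in WT was 41 and the KO median -0.174. With 3 libraries a group, KO estimates at E12.5 had a median SE of 0.13 and the largest was 0.26 (Cenpf).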
